A study of Mus musculus with 36 samples.

Results

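The genes described here are 30 genes of cholesterol synthesis and of its control by SREBP2. They were chosen by name for what their proteins do, with earlier results of these data known. They are 18 enzymes of the route from acetoacetyl-CoA to cholesterol and of a side branch, 6 genes of SREBP2 and its processing, 3 genes of sterol transport and receptor turnover, and 3 genes of sterol esterification and export. Each of the 30 symbols stood on 1 row of both expression tables, among 24346 symbols in all, and each passed the filter on low values that left 13215 genes for testing. The study asked how chronic intermittent hypoxia (IH), the repeated fall and recovery of oxygen seen in sleep apnea, changes the daily course of liver gene expression. Male wild-type C57BL/6JRj mice, 16 weeks old, were kept for 4 weeks under IH or under cycles of air and air (control), with 12 h of light per day and chow at will. IH mice breathed 60 cycles per hour between 5% and 21% oxygen from ZT0 to ZT8, where ZT counts the hours since lights on. Livers were taken at 6 time points 4 h apart, from 3 mice per time point and condition, which gave 36 libraries in 12 groups of 3 mice.

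Hepatocytes supply much of the cholesterol that the body makes. When membrane sterol is low, SCAP escorts the precursor of SREBP2 from the endoplasmic reticulum to the Golgi, where the site 1 and site 2 proteases free the part that enters the nucleus and turns on nearly every enzyme of the pathway. When sterol is high, INSIG proteins hold SCAP and SREBP2 in the endoplasmic reticulum. In rodent liver the pathway follows a daily rhythm tied to feeding, with high enzyme RNA in the dark phase.

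Expression came from sequencing of polyadenylated RNA of bulk liver and is given as FPKM, fragments scaled to transcript length and to the mapped total, so levels of genes can be compared per length. The files hold no counts, so the depth behind each value is unknown. In bulk tissue, fewer cells of a type and less RNA per cell cannot be told apart. The hepatocyte marker Alb stood between 23400 and 37561 FPKM in the 36 libraries, in keeping with the labelled tissue. Library control ZT12 replicate 2 stood apart: its group had the lowest correlation between replicates (r = 0.949, against 0.978 or more elsewhere), its FPKM summed to 758113 against at most 579428 elsewhere, and the summed level of 6 of 6 Kupffer cell markers, which ran from 21.3 to 176 FPKM in control and from 18.7 to 50.2 in IH, was highest there. Saa1, an acute phase gene, exceeded 10000 FPKM in 3 libraries (IH ZT0 replicate 2, control ZT12 replicate 2 and control ZT16 replicate 3). Differences below are IH minus control on the scale of log2(FPKM + 1), as mean ± SE, from limma with Benjamini-Hochberg adjustment over the 13215 genes unless stated otherwise.

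Promoter sequence from RefSeq (GRCm38.p6, the assembly also called mm10) was on hand for 25 of the 30 genes, as windows of 300 bases from 250 before to 50 after the start. The core of the sterol response element, TCACNCCAC, was found on either strand in 1 of the 25, Hmgcs1, and in 1.44% of the 27025 genes with a window. The CCAAT box (CCAAT), where NF-Y binds, was in 21 of the 25 genes (84.0%) against 41.1% of all genes, and the GC box (GGGCGG), an Sp1 motif, in 20 of the 25 (80.0%) against 38.2%. The E-box CACGTG, which circadian and SREBP factors can bind, was in 5 of the 25 (20.0%) against 8.09% of all genes. These shares are over all 27025 genes with a window, not over the genes tested in liver. A gene counted if any of its windows matched, and the 25 genes had 32 windows. A match is a description of letters, and the exact core is stricter than what SREBP2 binds. The stretches just before the start are shown for 6 genes on which the results below turn, 5′ to 3′ on the strand of the gene, in lower case with matches of the 4 motifs in capitals (ATTGG and CCGCCC are the reverse complements of the CCAAT and GC boxes). They lie at chr13:119690201-119690350 (plus strand), chr8:122443423-122443572 (minus strand), chr10:76531455-76531587 (plus strand), chr9:42264301-42264450 (minus strand), chr5:28071262-28071362 (plus strand) and chr1:121332590-121332739 (minus strand). For Insig2 the start farthest upstream is used.
Hmgcs1: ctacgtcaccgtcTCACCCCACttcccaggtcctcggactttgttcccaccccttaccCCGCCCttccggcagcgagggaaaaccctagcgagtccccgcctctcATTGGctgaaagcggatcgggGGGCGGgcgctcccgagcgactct
Mvd: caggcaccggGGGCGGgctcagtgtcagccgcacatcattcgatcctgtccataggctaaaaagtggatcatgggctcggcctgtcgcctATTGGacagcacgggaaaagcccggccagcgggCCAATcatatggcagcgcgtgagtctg
Lss: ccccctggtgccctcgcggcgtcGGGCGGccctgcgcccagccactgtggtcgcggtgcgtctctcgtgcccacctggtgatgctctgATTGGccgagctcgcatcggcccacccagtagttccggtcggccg
Sc5d: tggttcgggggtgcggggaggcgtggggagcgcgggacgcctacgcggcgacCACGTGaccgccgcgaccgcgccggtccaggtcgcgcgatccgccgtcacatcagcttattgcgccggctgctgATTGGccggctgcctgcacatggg
Insig1: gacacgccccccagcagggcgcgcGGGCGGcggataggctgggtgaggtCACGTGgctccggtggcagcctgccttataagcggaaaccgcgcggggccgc
Insig2: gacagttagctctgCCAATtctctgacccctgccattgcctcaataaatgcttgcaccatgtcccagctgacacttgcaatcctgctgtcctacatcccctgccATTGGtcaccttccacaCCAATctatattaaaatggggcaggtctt
Lss has 1 CCAAT box and 1 GC box. Hmgcs1 carries the sterol response element core with a CCAAT box and 2 GC boxes in this stretch, and Mvd has 2 CCAAT boxes and 1 GC box. Sc5d and Insig1 hold the E-box, beside 1 CCAAT box and 1 GC box respectively, and Insig2 has 3 CCAAT boxes and none of the other motifs here.

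On average the enzymes of cholesterol synthesis were at their highest at ZT0 and at their lowest at ZT12 in both conditions. The mean at ZT20 was near that at ZT0 in IH, and in control those at ZT4 and ZT20 were. In control the order of ZT12 and ZT16 depended on 1 library, as given below. The IH livers lay above the control livers at ZT20 and ZT0, and the groups overlapped at ZT12. The mean of the 18 enzymes per library, centred for each gene, averaged 0.17 ± 0.18 (SD, n = 3) in control and 0.62 ± 0.18 in IH at ZT0 on the log2 scale. The ZT20 values were 0.082 ± 0.11 for control and 0.57 ± 0.24 for IH, and at both of these time points the 3 IH livers lay above the 3 control livers. The gap was 0.44 at ZT0 and 0.49 at ZT20, which is 1.36-fold and 1.41-fold. At ZT4 the enzyme mean was 0.093 ± 0.30 in control and 0.095 ± 0.18 in IH, and at ZT12 it was -0.42 ± 0.16 and -0.47 ± 0.30, with overlap at both. At ZT8 the values were -0.33 ± 0.042 and -0.10 ± 0.26, also overlapping. At ZT16 they were -0.34 ± 0.41 in control and 0.032 ± 0.030 in IH, a gap of 0.37. Control ZT16 replicate 3 had an enzyme mean of 0.13 against -0.64 and -0.50 in the other control mice. Without it the gap was 0.60, and the control mean at ZT16 was -0.57, below that at ZT12. Control ZT16 replicate 3 is one of the 3 libraries with Saa1 above 10000 FPKM, and IH ZT0 replicate 2 is another. Without IH ZT0 replicate 2 the gap at ZT0 was 0.37, and the IH livers still lay above the control livers. For this mean both left-out settings were chosen after the values were seen. The part of high Saa1 in these results was not tested. No test was run on this mean, since its genes were chosen with earlier results known.

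**Figure D1:**
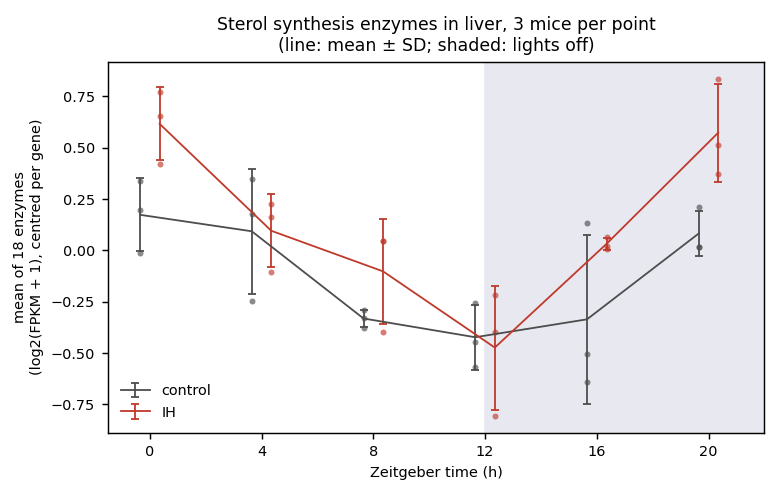
Mean of the 18 sterol synthesis enzymes in each liver (points, log2(FPKM + 1) centred per gene) by Zeitgeber time, with group means ± SD of 3 mice for control (grey) and IH (red). The IH and control mice do not overlap at ZT0 and ZT20, where the means differ by 0.44 and 0.49. Both conditions are lowest at ZT12, where they overlap, but without control ZT16 replicate 3 the control mean is lower at ZT16 (-0.57).

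Over all 6 time points, 27 of the 30 genes had a difference above 0, with a median of 0.18 against 0.025 for all genes tested, 68.5% of which were above 0. Only Lss passed the test as higher in IH (0.303% of all genes did), and none passed as lower, with array weights included (0.0530% of all genes). In limma at an unadjusted P under 0.05 the number was 16 of 30 higher and 0 lower, against 10.8% of all genes in either direction. Leaving out the 6 ZT12 libraries raised the number called higher to 11, against 4.09% of all genes: Acat2, Pmvk, Mvd, Fdps, Fdft1, Lss, Tm7sf2, Nsdhl, Ebp, Sc5d and Tmem97. Without control ZT12 replicate 2 alone the number was 3, where the share of all genes was not counted. Among the 11, the ZT12 difference itself was below 0 for Pmvk (-0.50), Acat2 (-0.32), Fdps (-0.31), Tmem97 (-0.30), Ebp (-0.30) and Nsdhl (-0.30). Fdft1 (-0.26), Sc5d (-0.19) and Tm7sf2 (-0.13) were also below 0 there, whereas Mvd (0.46) and Lss (0.27) were above. Why the number changed without ZT12 was not tested.

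**Figure D2:**
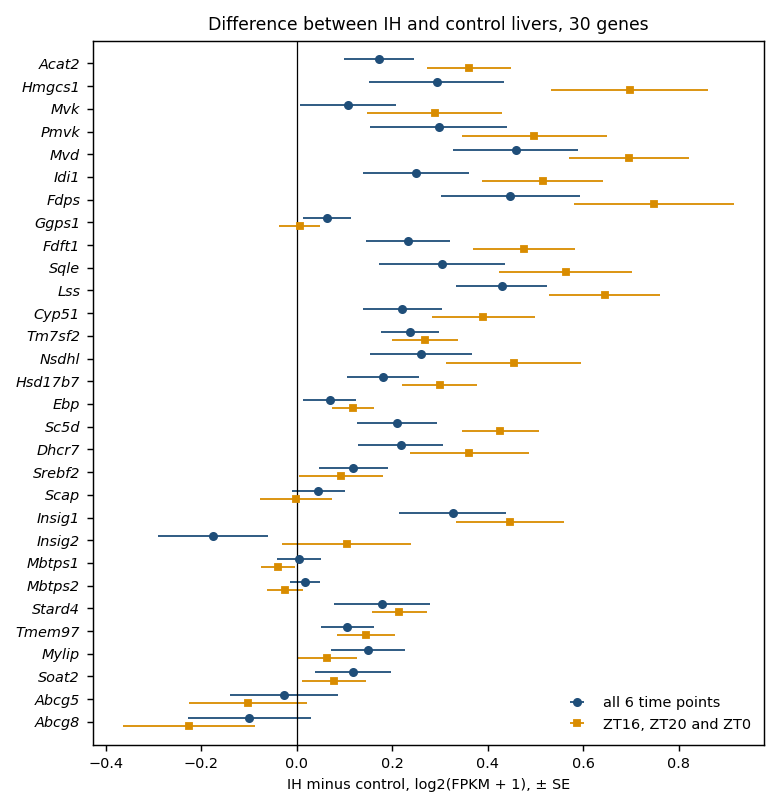
Difference between IH and control livers for each of the 30 genes, on the log2(FPKM + 1) scale with its SE, over all 36 libraries (circles) and over the 18 libraries of ZT16, ZT20 and ZT0 (squares, a choice made after the values were seen). Of the 30 genes, 27 lie above 0 over all time points, and Insig2, Abcg5 and Abcg8 lie below 0.

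Lss, lanosterol synthase, closes squalene epoxide into the first sterol of the pathway. Its gene lies on chromosome 10, from 76531588 to 76557138 on the plus strand (GRCm38). In control livers Lss stood at 10.5, 9.44 and 10.2 FPKM at ZT0, 12.1, 7.06 and 10.8 at ZT4, 6.01, 6.19 and 6.00 at ZT8, 6.70, 7.17 and 7.43 at ZT12, 8.12, 8.41 and 13.5 at ZT16 and 10.8, 12.7 and 9.50 at ZT20. The IH livers had 14.3, 21.1 and 18.1 FPKM at ZT0, 11.6, 12.0 and 7.07 at ZT4, 9.29, 8.81 and 6.06 at ZT8, 9.44, 11.4 and 6.23 at ZT12, 13.2, 11.9 and 12.1 at ZT16 and 26.9, 16.5 and 19.5 at ZT20. The 3 IH mice were above the 3 control mice at ZT0 and at ZT20, and the groups overlapped at the other 4 time points. Over all time points Lss rose by 0.43 ± 0.10 (1.35-fold, adjusted p = 0.033), with 15 of 18 IH livers above the control mean of their time point. When each of the 36 libraries was left out in turn the call was kept in 21 fits and lost in 15, with adjusted p up to 0.062, and the difference ran between 0.39 and 0.47. The call was also lost with no filter on low values (adjusted p = 0.052), with median ratio scaling (adjusted p = 0.10) and with quantile normalization (adjusted p = 0.084). The exons of Lss overlap 4930483K19Rik by 381 bases on the opposite strand, and reads of the pair cannot be told apart if the strand was not used.

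Fdps, farnesyl diphosphate synthase, makes the last intermediate before the branch between sterols and prenyl groups, and was the most abundant of the early enzymes. In control livers Fdps stood at 199, 233 and 260.0 FPKM at ZT0, 279, 193 and 206 at ZT4, 144, 145 and 129.6 at ZT8, 139, 461 and 166 at ZT12, 106, 136 and 335 at ZT16 and 246, 255 and 238 at ZT20. Under IH the values were 336, 521 and 373 FPKM at ZT0, 253, 297 and 221 at ZT4, 231, 261 and 145 at ZT8, 191, 211 and 137 at ZT12, 255, 262 and 273 at ZT16 and 515, 331 and 462 at ZT20. All IH mice were above all control mice at ZT0 and ZT20, and the highest control values were in control ZT12 replicate 2 and control ZT16 replicate 3. The highest of all 36 values, 521 FPKM, was in IH ZT0 replicate 2, and these 3 are the libraries with Saa1 above 10000 FPKM. The difference over all time points was 0.45 ± 0.15 (adjusted p = 0.21), and without the ZT12 libraries it was 0.60 ± 0.12 (adjusted p = 0.0052). Fdps has processed pseudogenes, and 1124 bases of its exons are shared with the annotated gene Gm43738 on the same strand, so its values may include reads of copies.

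Mvd, mevalonate diphosphate decarboxylase, makes isopentenyl diphosphate. In control livers Mvd stood at 22.8, 17.4 and 27.5 FPKM at ZT0, 17.2, 10.7 and 13.9 at ZT4, 7.18, 9.36 and 7.40 at ZT8, 6.03, 16.4 and 6.54 at ZT12, 11.5, 12.3 and 21.8 at ZT16 and 17.9, 17.6 and 15.4 at ZT20. In IH livers it stood at 40.0, 37.1 and 27.1 FPKM at ZT0, 11.2, 11.7 and 9.32 at ZT4, 14.3, 16.2 and 7.17 at ZT8, 10.9, 19.2 and 9.00 at ZT12, 26.2, 24.9 and 27.2 at ZT16 and 37.6, 24.6 and 23.4 at ZT20. The groups were apart at ZT16 and ZT20, with IH higher, and at ZT4 2 of the 3 control mice exceeded every IH mouse. Over all time points the difference was 0.46 ± 0.13 (adjusted p = 0.14), with 13 of 18 IH livers above the control mean of their time point.

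Hmgcs1, the cytosolic HMG-CoA synthase, commits acetyl units to the mevalonate route and had the largest fitted daily amplitude of the enzymes on the log2 scale. On the FPKM scale the fitted amplitude in IH was larger for Fdps (131 FPKM against 66.4). In control livers Hmgcs1 stood at 116, 72.7 and 138 FPKM at ZT0, 153, 75.1 and 142 at ZT4, 64.2, 54.2 and 44.4 at ZT8, 24.2, 27.4 and 27.4 at ZT12, 30.0, 27.1 and 60.2 at ZT16 and 78.5, 101 and 84.2 at ZT20. The IH livers had 124, 222 and 174 FPKM at ZT0, 97.5, 98.1 and 62.9 at ZT4, 66.7, 66.6 and 41.3 at ZT8, 28.3, 40.1 and 18.3 at ZT12, 71.1, 66.6 and 60.3 at ZT16 and 178, 105 and 123 at ZT20. IH mice were all above control mice at ZT16 and ZT20, whereas at ZT4 2 of the 3 control mice exceeded every IH mouse. The difference over all time points was 0.29 ± 0.14 (adjusted p = 0.45).

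The other early enzymes are Acat2, which joins 2 acetyl-CoA, the kinases Mvk and Pmvk, and the isomerase Idi1. Acat2 group means ran from 42.2 at ZT8 to 55.4 FPKM at ZT0 in control livers and from 36.5 at ZT12 to 77.7 at ZT20 in IH livers. Mvk ran from 8.31 at ZT16 to 17.0 FPKM at ZT0 in control livers and from 6.79 at ZT12 to 20.5 at ZT0 in IH livers. The product of Mvk is the substrate of Pmvk. Pmvk ran from 30.3 at ZT8 to 67.2 FPKM at ZT20 in control livers and from 32.1 at ZT12 to 108 at ZT20 in IH livers. Idi1 ran from 53.8 at ZT16 to 99.9 FPKM at ZT4 in control livers and from 56.0 at ZT12 to 142 at ZT0 in IH livers. In each of the 4 the IH maximum was the higher one, all IH mice were above all control mice at ZT20, and the difference over all time points was between 0.11 (Mvk) and 0.30 (Pmvk) without passing the test. Ggps1, which leads to geranylgeranyl diphosphate and away from sterols, stayed between 1.72 and 2.37 FPKM in all 12 group means, with a difference of 0.064 ± 0.05 (adjusted p = 0.65).

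Fdft1, squalene synthase, takes the first step that serves sterols alone. In control livers Fdft1 stood at 46.9, 29.5 and 50.4 FPKM at ZT0, 46.8, 30.5 and 40.5 at ZT4, 31.0, 30.5 and 28.3 at ZT8, 30.3, 33.3 and 27.0 at ZT12, 20.0, 22.0 and 30.4 at ZT16 and 34.2, 43.5 and 32.5 at ZT20. Under IH the values were 48.0, 60.7 and 59.4 FPKM at ZT0, 37.2, 39.8 and 32.8 at ZT4, 41.6, 40.4 and 30.9 at ZT8, 29.6, 27.8 and 19.1 at ZT12, 36.5, 35.2 and 31.4 at ZT16 and 61.2, 50.3 and 44.4 at ZT20. All IH mice were above all control mice at ZT16 and ZT20, and the difference over all time points was 0.23 ± 0.088 (adjusted p = 0.32). The exons of Fdft1 overlap Ctsb by 774 bases on the opposite strand, with the same limit as for Lss. Sqle, squalene epoxidase, which uses molecular oxygen, had group means that ran from 20.9 at ZT8 to 37.4 FPKM at ZT4 in control livers and from 25.5 at ZT8 to 52.4 at ZT20 in IH livers. Its difference was 0.30 ± 0.13 (adjusted p = 0.39), with the IH group wholly above control at ZT0 and ZT20.

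**Figure D3:**
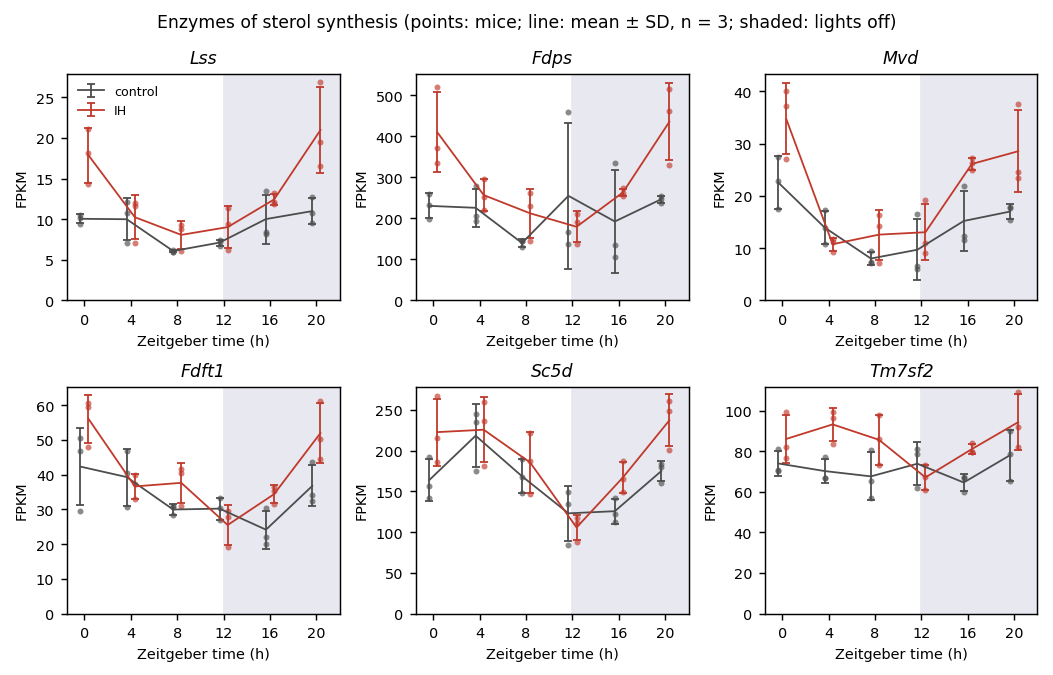
FPKM of 6 enzymes in each liver (points) by Zeitgeber time, with group means ± SD of 3 mice for control (grey) and IH (red), each axis starting at 0. Lss, Fdps, Mvd, Fdft1 and Sc5d reach a higher level in IH than in control at ZT20, and Tm7sf2 is higher in IH at ZT4 and ZT16.

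Cyp51, lanosterol 14-alpha demethylase, is a further oxygen-consuming step. In control livers Cyp51 stood at 42.0, 33.9 and 43.9 FPKM at ZT0, 47.2, 29.0 and 41.8 at ZT4, 29.8, 32.3 and 26.9 at ZT8, 22.6, 26.0 and 28.2 at ZT12, 22.3, 21.8 and 36.3 at ZT16 and 32.9, 40.7 and 31.4 at ZT20. In IH livers it stood at 44.0, 64.7 and 56.4 FPKM at ZT0, 37.6, 43.8 and 34.7 at ZT4, 33.5, 33.7 and 27.3 at ZT8, 30.7, 34.0 and 18.7 at ZT12, 30.3, 34.3 and 27.9 at ZT16 and 59.4, 43.4 and 47.6 at ZT20. IH mice were all above control mice at ZT0, by a narrow margin, and at ZT20, and the difference over all time points was 0.22 ± 0.083 (adjusted p = 0.31).

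Tm7sf2, a sterol C14 reductase, was the 1 enzyme that passed the test at ZT4 and ZT8. In control livers Tm7sf2 stood at 70.6, 70.1 and 81.3 FPKM at ZT0, 77.2, 66.7 and 66.7 at ZT4, 57.0, 80.4 and 65.4 at ZT8, 81.0, 61.6 and 78.9 at ZT12, 59.8, 66.6 and 67.3 at ZT16 and 65.2, 90.2 and 78.9 at ZT20. The IH livers had 76.7, 82.1 and 99.3 FPKM at ZT0, 99.3, 96.6 and 83.7 at ZT4, 85.8, 97.9 and 73.1 at ZT8, 67.3, 73.0 and 61.0 at ZT12, 79.4, 83.9 and 79.8 at ZT16 and 109, 81.9 and 92.0 at ZT20. IH mice were all above control mice at ZT4 and ZT16, and at ZT4 and ZT8 together Tm7sf2 rose by 0.37 ± 0.092 (adjusted p = 0.033, 6 of 6 IH livers above the control mean of their time point). Its difference over all time points was 0.24 ± 0.06 (adjusted p = 0.076). No 24-h rhythm was called for it in either condition, and 532 bases of its exons overlap Vps51 on the same strand, so reads of the pair cannot be fully told apart.

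Sc5d, lathosterol oxidase, and Dhcr7, which makes cholesterol from 7-dehydrocholesterol, act at the end of the route. In control livers Sc5d stood at 142, 157 and 193 FPKM at ZT0, 245, 174 and 235 at ZT4, 148, 168 and 189.5 at ZT8, 149.7, 84.6 and 135 at ZT12, 113, 122 and 142 at ZT16 and 180.1, 183 and 161 at ZT20. Under IH the values were 186, 215 and 267 FPKM at ZT0, 259.5, 236 and 181 at ZT4, 222, 188 and 147 at ZT8, 117, 111 and 88.4 at ZT12, 165, 149 and 187 at ZT16 and 261, 201 and 249 at ZT20. IH mice were all above control mice at ZT16 and ZT20, with a difference over all time points of 0.21 ± 0.083 (adjusted p = 0.34). Dhcr7 group means ran from 22.3 at ZT12 to 48.4 FPKM at ZT20 in control livers and from 23.2 at ZT12 to 67.8 at ZT20 in IH livers. Nsdhl, which takes part in C4 demethylation, ran from 27.2 at ZT16 to 43.4 FPKM at ZT0 in control livers and from 24.4 at ZT12 to 64.0 at ZT0 in IH livers. Both Dhcr7 and Nsdhl had the higher maximum in IH. Hsd17b7, a reductase of the same step, ran from 7.07 at ZT12 to 13.7 FPKM at ZT4 in control livers and from 9.21 at ZT12 to 15.2 at ZT0 in IH livers. Ebp, the sterol isomerase, ran from 90.3 at ZT8 to 119 FPKM at ZT12 in control livers and from 93.9 at ZT12 to 129 at ZT0 in IH livers. None of Dhcr7, Nsdhl, Hsd17b7 and Ebp passed the test over all time points, with differences of 0.22, 0.26, 0.18 and 0.069.

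Time point by time point, the groups were apart most often at ZT20. There, 15 of the 30 genes had all 3 IH mice above all 3 control mice (11.8% of all genes), and all 15 were among the 18 enzymes, while 1 gene, Mbtps2, had them all below (4.18%). At ZT0, 8 of the 30 were wholly above (4.59%) and 0 below (6.21%). At ZT16, 10 were wholly above (10.0%) and 2 below (3.84%), and without control ZT16 replicate 3 the first number was 21 (14.3% of all genes). At ZT4, 7 were above (26.7%) and 2 below (7.79%). At ZT8, 1 was above (11.0%) and 1 below (7.16%). At ZT12, 2 were above (6.34%) and 3 below (6.74%), and without control ZT12 replicate 2 these were 4 (9.32% of all genes) and 8 (19.0%).

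With 3 mice per group, limma called none of the 30 genes at any single time point after adjustment, where 0%, 1.16%, 0.00757%, 0.772%, 0.00757% and 0% of all genes passed at ZT0, ZT4, ZT8, ZT12, ZT16 and ZT20. At an unadjusted P under 0.05 the numbers of the 30 were 11, 6, 3, 9, 5 and 10 in that order, against 7.57%, 16.4%, 4.74%, 24.6%, 3.30% and 4.74% of all genes. Array weights called 0, 7, 1, 0, 3 and 1 of the 30, against 0%, 24.6%, 1.83%, 0.0151%, 0.219% and 0.219% of all genes. Fits of the 6 libraries of a time point alone called 5 of the 30 at ZT4, against 5.52% of all genes, and 0 elsewhere. The median difference of the 30 was 0.27 at ZT0, 0.066 at ZT4, 0.14 at ZT8, 0.023 at ZT12, 0.26 at ZT16 and 0.31 at ZT20. The median of all genes stayed between -0.016 and 0.067.

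**Figure D4:**
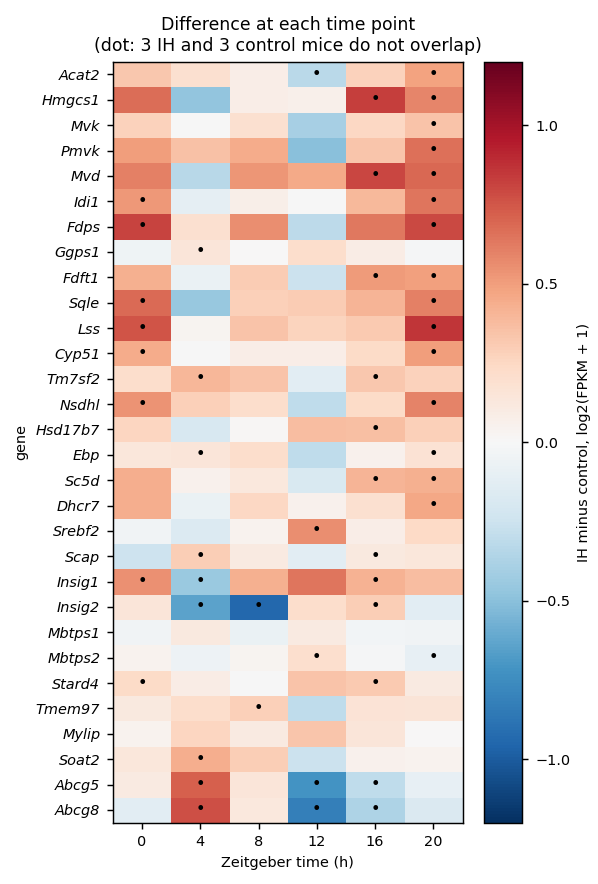
IH minus control of each of the 30 genes at each Zeitgeber time, in log2(FPKM + 1), as colour (red higher in IH, blue lower), with a dot where the 3 IH and 3 control mice do not overlap. Dots on red fill most enzyme rows at ZT20, while Insig2 is blue at ZT4 and ZT8, and Abcg5 and Abcg8 turn from red at ZT4 to blue at ZT12.

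Among the regulators, Insig2 was lower in IH at ZT4 and ZT8, with the smallest adjusted p of the 30 genes in that comparison. Insig2 is the INSIG form that does not depend on SREBP2 in liver and holds SCAP back when sterol is high. Its gene lies on chromosome 1, from 121304353 to 121332589 on the minus strand (GRCm38). In control livers Insig2 stood at 117, 69.0 and 98.2 FPKM at ZT0, 119, 105 and 111 at ZT4, 52.7, 34.7 and 33.1 at ZT8, 13.1, 12.1 and 14.2 at ZT12, 50.1, 46.6 and 53.0 at ZT16 and 87.4, 82.2 and 93.4 at ZT20. In IH livers it stood at 63.1, 145 and 116 FPKM at ZT0, 85.6, 70.7 and 60.1 at ZT4, 22.2, 20.7 and 17.3 at ZT8, 11.9, 16.0 and 19.2 at ZT12, 57.2, 54.8 and 73.6 at ZT16 and 81.5, 75.9 and 83.8 at ZT20. The IH mice were wholly below the control mice at ZT4 and at ZT8, wholly above them at ZT16, and overlapped them at ZT0, ZT12 and ZT20. At ZT4 and ZT8 together Insig2 fell, with a difference of -0.79 ± 0.12 (adjusted p = 0.0098, 0 of 6 IH livers above the control mean of their time point), where 1.93% of all genes passed as lower. The adjusted p was at most 0.029 in each of 36 fits that left out 1 library. Without the time point as a factor it did not pass. Over all time points the difference was -0.18 ± 0.12 (adjusted p = 0.58).

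Insig1, the INSIG form that SREBP2 itself turns on, took another course. In control livers Insig1 stood at 116, 129 and 157 FPKM at ZT0, 140.2, 131 and 135 at ZT4, 85.6, 94.6 and 108 at ZT8, 109, 151 and 70.4 at ZT12, 163, 170.2 and 197 at ZT16 and 150.5, 119.9 and 94.2 at ZT20. The IH livers had 232, 188 and 170.2 FPKM at ZT0, 107, 93.9 and 96.7 at ZT4, 174, 139.6 and 87.3 at ZT8, 191, 200.3 and 117 at ZT12, 271, 227 and 214 at ZT16 and 166, 201 and 111 at ZT20. IH mice were wholly above control mice at ZT0 and ZT16 and wholly below them at ZT4. The difference over all time points was 0.33 ± 0.11 (adjusted p = 0.25).

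At ZT12 Srebf2, which encodes SREBP2, averaged 5.93 ± 1.91 FPKM in the control mice against 8.88 ± 0.554 FPKM in the IH mice (SD, n = 3), with the 3 IH mice above the control mice, and its difference over all time points was 0.12 ± 0.072 (adjusted p = 0.56). At that time point the control group holds the library with high Kupffer cell and acute phase markers, in which Srebf2 was the lowest of the 36 at 3.72 FPKM, and the part of those cells in the result was not tested. Scap averaged 32.6 ± 1.76 FPKM in the control mice of ZT4 against 40.2 ± 2.38 FPKM in their IH counterparts, and over ZT4 and ZT8 together it rose by 0.20 ± 0.055 (adjusted p = 0.045). The proteases that cut SREBP2, Mbtps1 (site 1) and Mbtps2 (site 2), had differences of 0.0045 ± 0.047 and 0.017 ± 0.031 over all time points, neither past the test. Both differences were below 0 under 2 of 3 other scalings. Over the 12 groups, Mbtps1 means ran from 10.1 at ZT12 to 12.5 FPKM at ZT8 in control livers and from 10.4 at ZT16 to 12.1 at ZT4 in IH livers. Mbtps2 means ran from 0.931 at ZT12 to 1.34 FPKM at ZT4 in control livers and from 1.11 at ZT20 to 1.30 at ZT8 in IH livers. The site 2 protease was thus the scarcer of the pair per length. The exons of Mbtps2 overlap Yy2 by 2867 bases on the same strand, so reads of Mbtps2 and Yy2 cannot be fully told apart. Srebf2 means ran from 5.93 at ZT12 to 15.0 FPKM at ZT0 in control livers and from 8.88 at ZT12 to 14.4 at ZT0 in IH livers. Scap means ran from 18.5 at ZT16 to 32.6 FPKM at ZT4 in control livers and from 17.0 at ZT12 to 40.2 at ZT4 in IH livers. The exons of Scap overlap 5830462I19Rik by 985 bases on the opposite strand, with the same limit as for Lss.

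**Figure D5:**
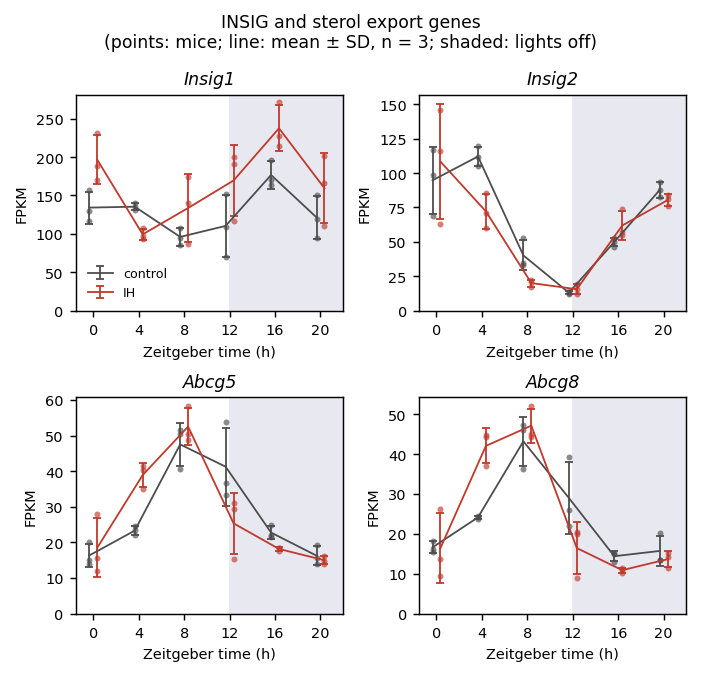
FPKM of Insig1, Insig2, Abcg5 and Abcg8 in each liver (points) by Zeitgeber time, with group means ± SD of 3 mice for control (grey) and IH (red). Insig2 in IH is below control at ZT4 and ZT8, and Abcg5 and Abcg8 in IH are above control at ZT4 and below it at ZT12 and ZT16.

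The sterol export genes were higher in IH at ZT4 and ZT8 together. Abcg5 and Abcg8 encode the partners of the transporter that moves cholesterol into bile, and their RefSeq starts lie back to back on chromosome 17, 109 bases apart. In control livers Abcg5 stood at 15.1, 13.9 and 20.0 FPKM at ZT0, 23.4, 22.0 and 24.5 at ZT4, 40.6, 51.4 and 50.5 at ZT8, 53.8, 33.2 and 36.8 at ZT12, 21.9, 21.4 and 24.9 at ZT16 and 15.6, 13.9 and 19.3 at ZT20. Under IH the values were 12.0, 15.7 and 27.8 FPKM at ZT0, 40.4, 41.3 and 35.0 at ZT4, 58.3, 48.8 and 50.4 at ZT8, 29.5, 15.4 and 31.1 at ZT12, 18.4, 17.6 and 18.4 at ZT16 and 16.1, 14.9 and 13.9 at ZT20. The IH mice were wholly above control at ZT4 and wholly below it at ZT12 and ZT16, and at ZT8, the peak of both conditions, they overlapped. In control livers Abcg8 stood at 16.1, 15.4 and 18.2 FPKM at ZT0, 24.4, 24.2 and 23.7 at ZT4, 36.1, 47.3 and 46.1 at ZT8, 39.1, 22.0 and 25.9 at ZT12, 15.0, 12.9 and 15.2 at ZT16 and 13.5, 13.5 and 20.1 at ZT20. In IH livers it stood at 9.42, 13.6 and 26.3 FPKM at ZT0, 44.8, 44.3 and 36.9 at ZT4, 52.0, 44.3 and 45.0 at ZT8, 19.9, 9.01 and 20.4 at ZT12, 10.9, 11.5 and 10.3 at ZT16 and 15.2, 11.4 and 14.3 at ZT20. The order of the groups was the same as for Abcg5 at each of these time points. At ZT4 and ZT8 together Abcg5 rose by 0.43 ± 0.11 (adjusted p = 0.034) and Abcg8 by 0.45 ± 0.12 (adjusted p = 0.04), while over all time points the differences were -0.027 ± 0.11 and -0.10 ± 0.13, neither past the test. The annotated exons of the pair overlap by 82 bases on opposite strands, and whether the estimates used the strand is not given in the sources used here.

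In the comparison at ZT4 and ZT8, which answers what differs within the hours of hypoxia, 6 of the 30 genes passed as higher (Tm7sf2, Scap, Tmem97, Soat2, Abcg5 and Abcg8), against 6.05% of all genes, and Insig2 alone passed as lower. The median difference of the 30 was 0.095 against 0.039 for all genes, with 22 of the 30 above 0 against 64.8% of all genes. At an unadjusted P under 0.05 there were 10 of the 30 against 27.1% of all genes. Soat2, which esterifies cholesterol for lipoproteins, rose by 0.37 ± 0.10 (adjusted p = 0.043), and Tmem97, which has been linked to sterol transport, by 0.25 ± 0.063 (adjusted p = 0.034). Soat2 group means ran from 9.95 at ZT16 to 21.4 FPKM at ZT8 in control livers and from 10.4 at ZT16 to 26.1 at ZT8 in IH livers. Tmem97 group means ran from 50.4 (ZT4) to 87.5 FPKM (ZT12) in control livers and from 55.5 at ZT0 to 82.8 at ZT8 in IH livers. For each of the 6, every IH liver was above the control mean of its time point. With adjusted p between 0.033 and 0.045 these 6 calls were near the limit: their number was between 0 and 6 when 1 library was left out, 0 without a filter on low values and 0 without the time point factor. It was 2 with FPKM rescaled to a common sum (3.72% of all genes) and 1 with the replicate block (5.19% of all genes). Lss, Fdps, Hmgcs1 and the other enzymes did not pass at ZT4 and ZT8, Tm7sf2 excepted. Stard4, a sterol carrier, and Mylip, which tags lipoprotein receptors for breakdown, ran from 7.02 to 11.6 and from 1.64 to 2.60 FPKM over the 12 group means, and neither passed in any comparison between the conditions.

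The daily rhythm was called in more of the 30 genes in IH than in control, as among all genes, and the control number depended on the setting. A cosine of 24 h, called at a nominal P of 0.01 or less, was found for 17 of 30 genes in control (20.0% of all genes) and for 26 in IH (39.9% of all genes). Without the 3 libraries with high Saa1 the numbers were 24 in control (27.4% of all genes) and 26 in IH (42.4%), and with array weights they were 23 (31.6%) and 26 (48.8%). All 17 were also called in IH (15.5% of all genes were called in both). Of the 30, 9 were called in IH alone: Acat2, Pmvk, Fdps, Ggps1, Sqle, Nsdhl, Ebp, Insig1 and Mbtps1. Of all 13215 genes, 5273 were called in IH, and 2047 of these were also called in control. Tm7sf2, Mbtps2, Stard4 and Mylip were called in neither. Median amplitudes were 0.35 (control) and 0.49 (IH) log2 units, against 0.12 for all genes in either condition. The amplitude was larger in IH for 24 of the 30, and the share of all genes with a larger amplitude in IH was not counted. A call in one condition alone does not show a difference: the interaction of condition with the cosine passed for none of the 30 and for 0% of all genes in limma, also with array weights, with 4 of 30 (Acat2, Hmgcs1, Abcg5 and Abcg8) and 4.91% of all genes at an unadjusted P under 0.05.

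Fitted peaks of the whole set were spread over the day, while those of the enzymes other than Ggps1 lay within a part of it. In control these ran from 20.0 h (Ebp) through lights on to 2.44 h (Nsdhl). In IH they ran from 20.2 h (Mvd) to 0.618 h (Nsdhl). These ranges include enzymes without a called rhythm. In control, Hmgcs1 peaked at 0.996 ± 0.454 h after lights on (SE of the fit), and Lss at 21.4 ± 0.844 h. Insig2 peaked at 0.0127 ± 0.481 h (control) against 22.5 ± 0.416 h (IH). Soat2 peaked in the light phase, at 6.26 ± 0.765 h (control) against 5.25 ± 0.403 h (IH). Abcg8 peaked at 8.03 ± 0.497 h (control) against 5.96 ± 0.549 h (IH), Abcg5 at 9.77 ± 0.359 h (control) against 7.22 ± 0.512 h (IH) and Tmem97 at 11.1 ± 0.773 h (control) against 9.83 ± 0.779 h (IH). Among the enzymes, Ggps1, which makes the precursor of prenyl groups, peaked latest in the light phase in IH, at 6.23 ± 0.889 h. Of the 17 genes rhythmic in both conditions, 16 had the earlier fitted peak in IH, with a median of -1.76 h, Scap being the exception at 0.33 h. Among all genes rhythmic in both, 71.1% peaked earlier in IH, with a median of -0.645 h. Samples 4 h apart limit how finely a peak can be placed, and no test of single phases was run beyond the interaction.

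Mice of the same group that had more RNA of one enzyme tended to have more of the others. The deviation of each gene from its group mean was set against that of the mean of the enzymes other than itself over the 36 livers, for the 30 genes in 1 family. For 17 of the 18 enzymes r was positive with an adjusted p under 0.05 (100000 permutations within groups, two-sided), with a median of 0.76 over the 18, against -0.093 for all genes tested. Of all genes 2.47% had r of 0.5 or more, which 15 of the enzymes had. Hmgcs1 had r = 0.93 and rho = 0.91 (adjusted permutation p = 8.6e-05 and 5.0e-05), and without the 2 livers farthest from the median r was 0.91. Dhcr7 had r = 0.92 and rho = 0.89 (adjusted permutation p = 7.5e-05 and 5.0e-05). Without the 2 livers farthest in its own comparison, control ZT16 replicate 3 and IH ZT12 replicate 3, r was 0.90. Ggps1 was the exception among the enzymes, with r = -0.22 and rho = -0.10 (adjusted permutation p = 0.26 and 0.69).

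Outside the enzymes, Tmem97 varied with them, with r = 0.72 and rho = 0.70 (adjusted permutation p = 0.00018 and 0.00032), and 0.66 without the 2 farthest livers. Mylip varied against them, with r = -0.36 and rho = -0.41 (adjusted permutation p = 0.022 and 0.037), and -0.34 without those 2. Srebf2 had r = 0.14, Scap 0.013, Insig1 0.39, Insig2 0.29, Soat2 -0.016, Abcg5 0.0065 and Abcg8 -0.036, none with an adjusted permutation p of r under 0.05. Livers of a group share their time of day, and each gene is compared within 1 library, so library composition is common to both axes.

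Neighbouring pathways were counted from lists written with earlier results of these data known. Of 14 genes of SREBP1 and fatty acid synthesis, all 14 had a difference above 0 over all time points (68.5% of all genes), with a median of 0.33. Of the 14, 3 passed as higher (0.303% of all genes) and 0 as lower (0.0530%). These were Acly, ATP citrate lyase, which supplies cytosolic acetyl-CoA (0.58 ± 0.094, adjusted p = 0.0018, 18 of 18 IH livers above the control mean of their time point), Fasn, fatty acid synthase (0.74 ± 0.13, adjusted p = 0.0022), and the elongase Elovl6 (0.44 ± 0.088, adjusted p = 0.014). Acaca, acetyl-CoA carboxylase, had a difference of 0.28 ± 0.07 (adjusted p = 0.066). Over all time points none passed in limma in either direction among 10 genes of INSIG and sterol-regulated degradation, 12 of intracellular cholesterol transport, 8 of the LXR arm, 12 of the prenyl and dolichol branch and 3 other sterol enzymes. At an unadjusted P under 0.05 the numbers higher were 1, 3, 1, 1 and 1 in that order, with 0 lower in each, and the medians were 0.041, 0.027, 0.021, 0.040 and 0.17. In the SREBP1 list 9 of 14 were higher at that limit and 0 lower, against 10.8% of all genes in either direction. At ZT4 and ZT8, 2 genes of the INSIG list and 1 of the LXR arm passed as lower (1.93% of all genes). As higher, 2 of the SREBP1 list, 1 of cholesterol transport and 1 other sterol enzyme passed there (6.05% of all genes).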

How the data were processed

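Liver RNA of 36 mice was sequenced as stranded, paired-end libraries of polyadenylated RNA. Per the study's methods and the submitters' processing notes, the authors aligned reads to mm10 with TopHat2 2.1.1 and estimated expression with Cufflinks 2.2.1. The deposited values are FPKM per gene symbol and library, in 1 table per condition whose columns carry the same names, and each table's own name gave its condition. Scaling between libraries, the annotation and use of the strand are not given in the sources used here. No counts were on hand, so depth and its precision are unknown.

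Of 24883 rows and 24346 symbols, the 280 symbols on several rows were left out. The filter kept 13215 genes whose mean FPKM over 36 libraries reached 0.1. limma 3.58.1 (R 4.3.3), with an intensity trend, was run on log2(FPKM + 1). Fold changes on this scale understate the change of low genes. Rhythms were tested per condition over 18 libraries with a 24 h cosine (nominal P of 0.01), in place of the BIO_CYCLE test of the study. Rhythms were compared by a condition by cosine term fitted to 36 libraries. Levels were compared over 36 libraries, and over the 12 of ZT4 and ZT8, with time point as a factor, and at single time points in 1 fit of 12 groups (adjusted p of 0.05, Benjamini-Hochberg over all genes). Co-variation used Python 3.11.15 and 100000 permutations within groups. The fits were tested on simulated data. The smallest p that the permutations can give is 1e-05.

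The 30 genes, the pathway lists and the markers were chosen with earlier results of these data known. Every value per library is given for the 8 genes with the smallest P in the level test and the 4 with the smallest rhythm P in control, and the other genes are given by their group means. Gene coordinates came from the GENCODE annotation of GRCm38 and promoters from RefSeq (GRCm38.p6), not printed where they fall inside an annotated gene. Stated protein roles are background. Labels give no batch. The alternatives were other pseudocounts, filters, scalings, weights, blocks and left-out libraries, and the windows of ZT16, ZT20 and ZT0 and of ZT4, ZT8 and ZT12 were added after the values had been seen.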

Additional observations from a re-analysis of the deposited data

Results flagged for a closer look

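In 6 of the 30 genes the 3 IH mice were wholly above the 3 control mice at one time point and wholly below them at another. The same was seen in 13.0% of all genes. The change of the difference over the 6 time points was tested in limma (condition by time point), and this passed for none of the 30 and for 18 of the 13215 genes, with 7 of the 30 at an unadjusted P under 0.05 against 14.2% of all genes. Insig2 (below at ZT4 and ZT8, above at ZT16) had an adjusted p of 0.124. Abcg5 and Abcg8 (above at ZT4, below at ZT12 and ZT16) had adjusted p of 0.151 and 0.171. For Acat2 (below at ZT12, above at ZT20) it was 0.265. For Insig1 (below at ZT4, above at ZT0 and ZT16) it was 0.37, and for Mbtps2 (below at ZT20, above at ZT12) it was 0.378.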

How the results depend on the processing

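Of the counts of genes past a threshold that were above 0 as reported, 54 of 68 under settings other than a left-out library stayed within 1.5 times their value, and 89 counts of 0 stayed 0. The number of the 30 genes rhythmic in control (17) ran from 15 to 21 and in IH (26) from 25 to 27 when 1 library was left out. The number higher in IH over all time points was 1 as reported and 0 with no filter on low values, with median ratio scaling and with quantile normalization. It was 7 with array weights (1.96% of all genes), 4 without the 3 libraries with Saa1 above 10000 FPKM (1.19%) and 11 without the ZT12 libraries (4.09%). At a nominal P of 0.01 it was 5, where the share of all genes was not counted. It was 3 with ZT16, ZT20 and ZT0 alone (0.204% of all genes) and 0 with ZT4, ZT8 and ZT12 alone, both chosen after seeing the data. With 1 library left out it ran from 0 to 3, the highest without control ZT12 replicate 2, and the shares of all genes were not counted. The number higher at ZT4 and ZT8 (6) was 0 with no filter, 2 with FPKM rescaled to a common sum, 0 without the time point factor and 0 to 6 with 1 library left out. It was 0 without IH ZT4 replicate 2 or 3, IH ZT8 replicate 1, control ZT4 replicate 2 or 3, or control ZT8 replicate 1, 1 without IH ZT4 replicate 1 or control ZT4 replicate 1, and 2 without IH ZT8 replicate 2. The shares of all genes in these left-out fits were not counted. The number lower at ZT4 and ZT8 (1) was 0 without the time point factor. With the replicate number as a replicate block the number higher at ZT4 and ZT8 was 1. Residuals of same-numbered mice of the 2 conditions correlated by 0.0539 on average over 18 pairs, so the numbers were not taken to pair the mice.

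For single time points none was called as reported. At ZT4, 7 were called with array weights (24.6% of all genes) and 5 with the 6 libraries of ZT4 alone (5.52%). There 3 were called without the high-Saa1 libraries, 2 without the ZT12 libraries, and 0 to 1 with 1 library left out. The shares of all genes in those last settings were not counted. Array weights called 1 at ZT8 (1.83% of all genes), 3 at ZT16 (0.219%) and 1 at ZT20 (0.219%). At ZT12 median ratio scaling called 1, and leaving out 1 library 0 to 7, the highest without control ZT12 replicate 3, with 4 without control ZT12 replicate 1. The shares of all genes for these ZT12 counts were not counted. The median r with the enzyme mean (0.56) ran from 0.53 to 0.70 with 1 library left out. Differences over all time points that changed sign were all far from the threshold. Mbtps1 was -0.037 with median ratio scaling, -0.033 with quantile normalization, -0.046 with array weights, -0.040 without the high-Saa1 libraries, -0.017 without ZT12 and -0.033 to 0.020 with 1 library left out. Mbtps2 was -0.0075, -0.0064 and -0.020 with median ratio scaling, quantile normalization and without ZT12. Abcg5 was 0.0038 without the high-Saa1 libraries, 0.11 without ZT12 and -0.076 to 0.040 with 1 library left out, and Abcg8 was 0.045 without ZT12. The cause of these changes was not tested. No scaling moved the median difference of all genes by over 0.1.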

Other observations

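Over the 18 libraries of ZT16, ZT20 and ZT0, a window chosen after the values were seen, the median difference of the 30 genes was 0.29 against 0.011 for all genes, and 25 of the 30 were above 0. The share of all genes above 0 was not counted for this window. At ZT0, ZT16 and ZT20 taken singly it was 44.5%, 59.4% and 63.1%. Mvd (0.70 ± 0.13, adjusted p = 0.028), Lss (0.64 ± 0.12, adjusted p = 0.028) and Sc5d (0.43 ± 0.081, adjusted p = 0.039) passed as higher in IH in limma, where 27 of 13215 genes did, and 11 of the 30 passed without the libraries with Saa1 above 10000 FPKM, where 79 of 13215 genes did. Over ZT4, ZT8 and ZT12 the median of the 30 was 0.065 against 0.038 for all genes. The difference between the windows was not tested beyond the interactions given above.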
